A study of Mus musculus with 40 samples.

Results

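The genes of fibroblast growth factors (FGFs) and of their receptors were followed across the sorted cell types of the mouse mammary gland. The set held 6 ligand genes (Fgf1, Fgf2, Fgf7, Fgf9, Fgf10 and Fgf18) and 4 receptor genes (Fgfr1, Fgfr2, Fgfr3 and Fgfr4), chosen by name after Ensembl identifiers were matched to mouse symbols. All 10 were among the 23180 genes that the adult and the pubertal count tables had in common. The libraries came from wild-type FVB/N females, with no transgene, deletion or treatment in any group. Adult females were 14 to 16 weeks old and in proestrus, estrus, metestrus or diestrus, and pubertal females were 34 to 36 days old. In each of these 5 conditions there were 2 libraries from luminal cells, 2 from basal cells, 2 from adipocytes and 2 from fibroblasts, which gave 40 libraries. An adult library held the RNA of 2 or 3 pooled mice and a pubertal library that of 4, and all cell types of an adult replicate came from the same mice. The cell types of a pubertal replicate also shared their mice, except that the second adipocyte library came from mice of another day. Luminal and basal cells were sorted by EpCAM and CD49f after cells with the lineage markers CD45, CD31 and Ter119 had been set aside. The fibroblast libraries held the stromal cells sorted as negative for all of these markers. The adipocyte libraries held the fat fraction that floats on centrifugation, which was not sorted by any surface marker. Pubertal and adult libraries were sequenced in separate runs, so age and run cannot be told apart.

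The deposited counts summed to 8991222 to 22760563 reads per adult library and to 11774264 to 19033586 reads per pubertal library. The cell type labels were checked against defining markers, given here as read counts scaled to library size (CPM). Epcam ranged from 2025 to 2297 CPM in the adult luminal libraries and Krt14 from 4814 to 7605 CPM in the adult basal libraries, while Adipoq ranged from 341 to 1553 CPM in adult adipocyte libraries and Pdgfra from 467 to 1212 CPM in adult fibroblast libraries. In adult libraries of the other cell types, Epcam reached 1107 CPM (basal) and Krt14 1910 CPM (adipocyte). Adipoq reached 3.18 CPM there (fibroblast) and Pdgfra 110 CPM (adipocyte). The stromal and fat libraries held other cells as well, since the endothelial gene Pecam1 lay between 299 and 955 CPM in adult fibroblast libraries and between 152 and 436 CPM in adult adipocyte libraries. The fibroblast libraries did so although the sort had set aside cells with CD31, which the paper used to exclude endothelial cells. Some adipocyte libraries held epithelial RNA. The summed level of 12 luminal markers was 2030 and 1030 CPM in the diestrus adipocyte libraries and 1736 and 1094 CPM in the pubertal ones, against 192 to 488 CPM in the 6 other adult adipocyte libraries. In a library of a mixed population, fewer cells of a type and less RNA per cell cannot be told apart.

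FGFs are secreted, heparin-binding proteins that signal through receptor tyrosine kinases, with heparan sulfate on the cell surface as a cofactor. In the mammary gland, FGF10 made by the mesenchyme and the receptor FGFR2 on the epithelium are needed for the embryonic gland to form, and FGF signalling takes part in branching of the ducts at puberty. Which ligand a receptor binds is set in part by alternative splicing of the exon for the third immunoglobulin-like loop of FGFR1, FGFR2 and FGFR3. The IIIb form is typical of epithelium and the IIIc form is typical of mesenchyme, and the IIIb form of FGFR2 binds FGF7 and FGF10. The IIIb exon of Fgfr2 is shown because it defines the epithelial form, while every Fgfr2 value below is a sum over transcripts with or without it. It lies on the minus strand of chromosome 7 of GRCm38 and is given 5′ to 3′ from the GENCODE transcripts.
Fgfr2 IIIb exon, chr7:130199758-130199905: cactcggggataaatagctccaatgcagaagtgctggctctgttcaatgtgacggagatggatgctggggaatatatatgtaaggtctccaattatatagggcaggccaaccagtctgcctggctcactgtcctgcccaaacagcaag
The exon is 148 bases long and occurs in 10 of the 27 annotated Fgfr2 transcripts. It lies inside the gene (chr7:130162451-133123350), and the deposited gene-level counts do not say whether a read came from a transcript that holds it. Fgfr2 shares 314 bases of exon with Ctbp2 on the same strand. The part of this overlap in the Fgfr2 counts and exon length was not tested.

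Among the ligands, Fgf10 and Fgf7 had the most uneven distribution, with stromal and fat libraries high and epithelial libraries near 0. Fgf10, the mesenchymal ligand needed for the embryonic gland (chr13:118669791-118792115), was highest in adipocytes. It ranged from 22.1 to 52 CPM over the 10 adipocyte libraries: 24.7 and 52 CPM at puberty, 38.8 and 43 CPM in proestrus, 51.5 and 48.2 CPM in estrus, 31.3 and 38.1 CPM in metestrus, and 23.9 and 22.1 CPM in diestrus. In fibroblasts it stood at 8.87 and 8.6 CPM at puberty, 10.9 and 10.3 CPM in proestrus, 1.12 and 10 CPM in estrus, 7.87 and 8.26 CPM in metestrus, and 5.33 and 8.21 CPM in diestrus. No fibroblast library reached the lowest adipocyte library. The value of 1.12 CPM rests on 7 reads in the first estrus library, the shallowest of the series. In adults Fgf10 was higher in adipocytes than in fibroblasts by 2.21 on the log2 scale (SE 0.26, adjusted p = 1.24e-06), with means of 37.1 ± 10.7 and 7.76 ± 3.21 CPM (SD, n = 8 each). The 8 adult adipocyte libraries held 4416 Fgf10 reads and the 8 adult fibroblast libraries 924, against 2 reads in all 8 adult luminal libraries and 2 in all 8 adult basal libraries. From the pooled reads, Fgf10 in adult adipocytes was 3362-fold that in luminal cells (95% interval 930 to 27773) and 2624-fold that in basal cells (95% interval 726 to 21670), intervals that cover counting error only.

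Fgf7, also known as keratinocyte growth factor, is made by mesenchyme and binds the same epithelial receptor form (chr2:126034658-126091185). It had the opposite order of Fgf10, with adipocytes below fibroblasts. Adipocyte libraries held 3.85 and 22.6 CPM at puberty, 13.1 and 8.1 CPM in proestrus, 14.4 and 11.2 CPM in estrus, 10.1 and 11.3 CPM in metestrus, and 2.51 and 15.6 CPM in diestrus. Fibroblast libraries held 87.6 and 125 CPM at puberty, 101 and 53 CPM in proestrus, 18.4 and 33 CPM in estrus, 54.7 and 46.7 CPM in metestrus, and 33 and 62.3 CPM in diestrus. The adult groups did not overlap, and Fgf7 was lower in adipocytes than in fibroblasts by a log2 difference of -2.13 (SE 0.25, adjusted p = 1.70e-07). Every adult epithelial library lay at or below 0.251 CPM, with 2 to 4 reads in a luminal library and 1 to 5 in a basal library. Luminal and basal cells were not told apart by the test (log2 difference -0.23, SE 0.74, adjusted p = 0.820). Relative to fibroblasts the adult log2 differences were -8.53 in luminal cells (SE 0.39, adjusted p = 3.40e-14) and -8.29 in basal cells (SE 0.40, adjusted p = 1.11e-13).

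Fgf2, a broadly acting mitogen that is stored in the extracellular matrix (chr3:37348346-37410108), was close to 0 in luminal cells and present in the other cell types. In adults it ranged from 0 to 0.195 CPM in luminal cells (median 0.0787), from 7 to 18.2 CPM in basal cells (median 9.59), from 10.2 to 22.6 CPM in adipocytes (median 12.5) and from 6.59 to 15.5 CPM in fibroblasts (median 8.04). The luminal libraries did not overlap with any other, and Fgf2 was lower in luminal than in basal cells by a log2 difference of -6.90 (SE 0.31, adjusted p = 4.71e-14). The other cell types overlapped. Adipocytes were above fibroblasts by 0.61 on the log2 scale (SE 0.20, adjusted p = 0.00772), while basal cells did not pass the test against fibroblasts (0.21, SE 0.19, adjusted p = 0.331). The difference of basal cells over adipocytes lay near the threshold (-0.40, SE 0.19, adjusted p = 0.0609). It was called, with Fgf2 lower in basal cells, by DESeq2 (-0.52, adjusted p = 0.0109), with RLE size factors (-0.52, adjusted p = 0.0166), without a filter (-0.43, adjusted p = 0.0252) and when any of 22 of the 32 adult libraries was left out. It was also called without the diestrus adipocyte libraries (-0.60, adjusted p = 0.00763), a choice made after their epithelial RNA had been seen. Fgf2 shares 640 bases of exon with Nudt6 on the opposite strand. Nudt6 lay between 0.801 and 11.5 CPM in adult libraries of the cell types that expressed Fgf2, and its part in the Fgf2 counts was not tested.

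Fgf1, a ligand able to bind all FGF receptors, was the only ligand of the set whose adult level was higher in both epithelial cell types than in adipocytes and fibroblasts. In adults it ranged from 4.75 to 14.4 CPM in luminal cells (median 6.51), from 5.43 to 11.9 CPM in basal cells (median 8.92), from 1.54 to 2.88 CPM in adipocytes (median 2.41) and from 1.55 to 2.78 CPM in fibroblasts (median 2.49). The epithelial libraries all lay above the adipocyte and fibroblast libraries. Fgf1 was higher in luminal cells than in adipocytes by 1.64 on the log2 scale (SE 0.14, adjusted p = 1.22e-09) and higher in basal cells than in fibroblasts by 1.87 (SE 0.14, adjusted p = 2.76e-10). The smaller difference of luminal over basal cells (-0.31, SE 0.13, adjusted p = 0.0407) lay within overlapping groups and was lost under several settings, with adjusted p from 0.0769 to 0.187 under other size factors, DESeq2 or no filter. It was also lost when any of 13 of the 32 adult libraries was left out, with log2 differences of -0.18 to -0.31. Adipocytes and fibroblasts were not told apart (-0.09, adjusted p = 0.606).

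Fgf18, a ligand best known from bone and lung development, was highest in fibroblasts. It ranged from 0.0433 to 0.217 CPM in adult luminal cells, from 0.0793 to 0.666 CPM in adult basal cells, from 1.2 to 3.2 CPM in adult adipocytes and from 2.3 to 6.37 CPM in adult fibroblasts. The adipocyte and fibroblast groups overlapped only through the second diestrus fibroblast library at 2.3 CPM, whose summed fibroblast markers (19261 CPM) were the lowest of the 8 adult fibroblast libraries. Fgf18 was lower in adipocytes than in fibroblasts by a log2 difference of -1.14 (SE 0.28, adjusted p = 0.000872). The difference of luminal over basal cells (-1.36, SE 0.43, adjusted p = 0.00732) rests on 1 to 5 reads per luminal library and was lost without the second metestrus basal library (-1.0, adjusted p = 0.137). Fgf9, which acts between epithelium and mesenchyme in several organs, never exceeded 0.945 CPM in any of the 40 libraries, did not pass the filter of more than 1 CPM in at least 2 libraries and was not tested.

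**Figure D1:**
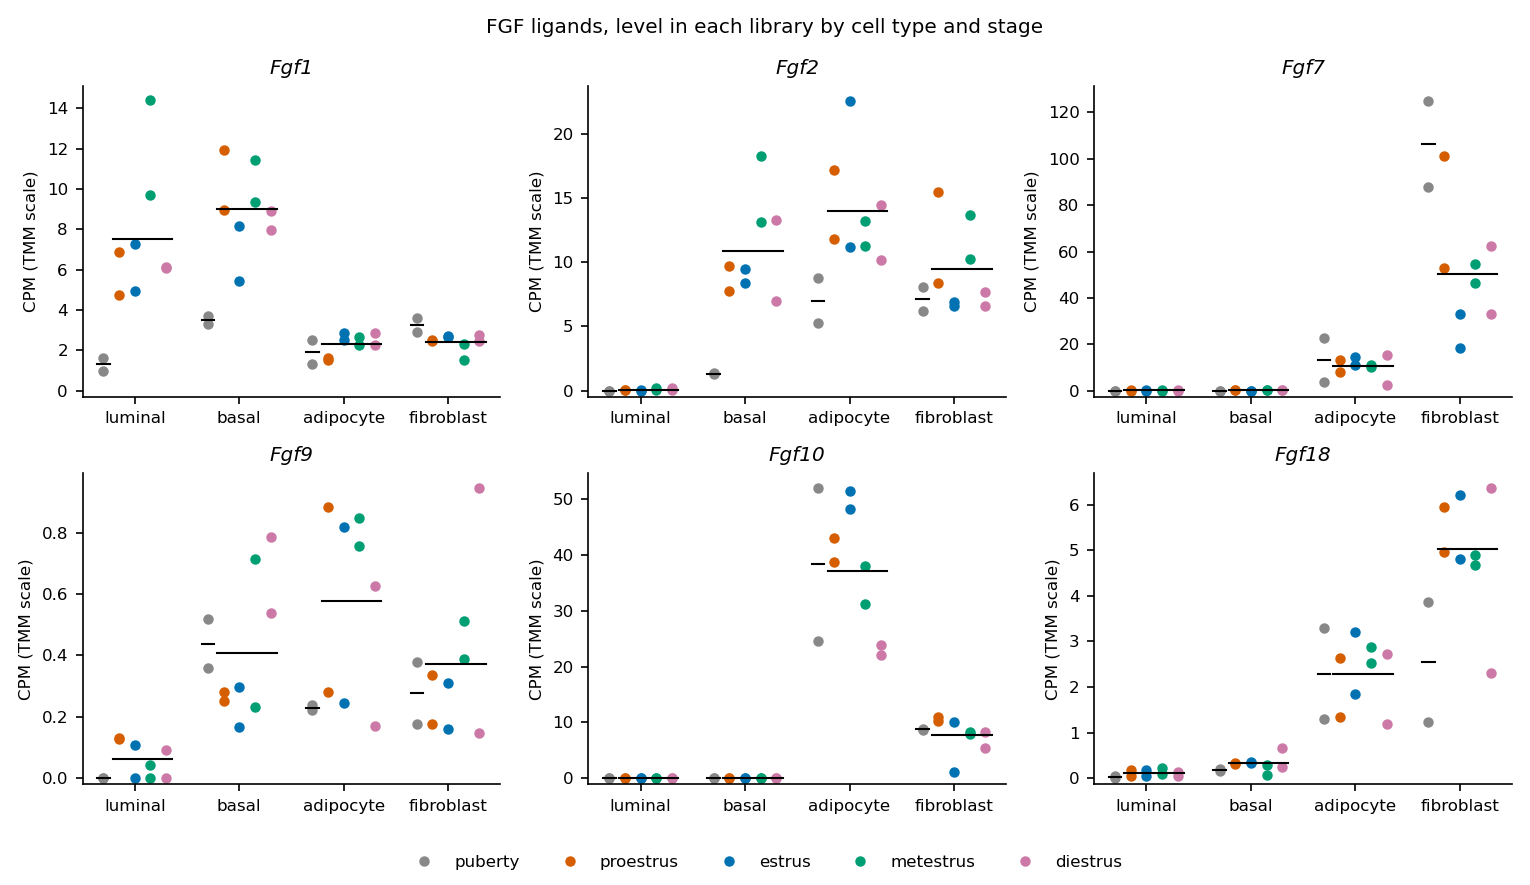
CPM of each of the 6 ligand genes in every library, by cell type, with points coloured by stage and bars at the means of the pubertal and of the adult libraries. Fgf10 is highest in adipocytes (22.1 to 52 CPM), Fgf7 in fibroblasts (18.4 to 125 CPM), and luminal libraries are near 0 for every ligand but Fgf1.

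The receptors were more broadly expressed than the ligands, and each had its own order over cell types. Fgfr1, the main receptor of mesenchymal cells (chromosome 8), was detected in every library and was highest in fibroblasts. Adult luminal libraries ranged from 229 to 458 CPM (median 343), basal libraries from 477 to 784 CPM (median 604), adipocyte libraries from 144 to 289 CPM (median 174) and fibroblast libraries from 1162 to 2311 CPM (median 2023). Fibroblasts overlapped with no other cell type, and neither did basal cells. Fgfr1 was lower in basal cells than in fibroblasts by -1.66 (SE 0.16, adjusted p = 1.16e-08), lower in luminal than in basal cells by -0.86 (SE 0.16, adjusted p = 6.14e-05) and higher in luminal cells than in adipocytes by 0.83 (SE 0.16, adjusted p = 7.62e-05), all on the log2 scale, although luminal cells and adipocytes overlapped.

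Fgfr2, the epithelial receptor whose IIIb exon is shown above, was highest in luminal cells. Its adult levels ranged from 308 to 444 CPM in luminal cells (median 400.3), from 118 to 205 CPM in basal cells (median 168), from 7.44 to 67.4 CPM in adipocytes (median 10.2) and from 16.3 to 66.8 CPM in fibroblasts (median 25). No luminal library overlapped with a basal library, and no epithelial library with an adipocyte or fibroblast library. Fgfr2 was higher in luminal than in basal cells by 1.27 (SE 0.17, adjusted p = 1.04e-06), than in fibroblasts by 3.72 (SE 0.19, adjusted p = 1.80e-13) and than in adipocytes by 4.72 (SE 0.20, adjusted p = 1.17e-14). Adipocytes were below fibroblasts by -1.0 (SE 0.18, adjusted p = 3.56e-05) with all libraries and by -1.58 without the diestrus adipocyte libraries. The fibroblast library with the highest Fgfr2 level, the second of diestrus (66.8 CPM), also had the highest summed luminal markers of the adult fibroblast libraries (454 CPM, against 48.3 to 386 CPM in the other 7), and their part in its level was not tested.

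Fgfr3, a receptor known for its role in the growth plate of bone (chromosome 5), was highest in adult basal cells. It ranged from 13.2 to 23.7 CPM in adult luminal cells (median 19.3), from 21.2 to 40.2 CPM in basal cells (median 34.1), from 3.74 to 16.8 CPM in adipocytes (median 6.1) and from 12.4 to 25.5 CPM in fibroblasts (median 20.9). The basal group overlapped with the luminal and fibroblast groups at its lower end. Basal cells were higher than fibroblasts by 0.69 on the log2 scale (SE 0.16, adjusted p = 0.000626), and luminal cells were lower than basal cells by -0.77 (SE 0.16, adjusted p = 0.000219). Luminal cells and fibroblasts were not told apart (-0.08, SE 0.16, adjusted p = 0.682). Fgfr3 shares 998 bases of exon with an unclassified gene on the opposite strand.

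Fgfr4, the receptor through which bile acid synthesis is controlled in the liver (chr13:55152640-55168759), was also highest in adult basal cells, at low levels. It ranged from 0 to 0.245 CPM in adult luminal cells (median 0.0998), from 4.71 to 7.99 CPM in adult basal cells (median 5.9), from 0.0559 to 2.39 CPM in adult adipocytes (median 0.275) and from 0.294 to 3.36 CPM in adult fibroblasts (median 0.949). Basal libraries did not overlap with any other cell type. Fgfr4 was lower in luminal than in basal cells by -5.75 on the log2 scale (SE 0.49, adjusted p = 1.23e-09) and higher in basal cells than in fibroblasts by 2.46 (SE 0.39, adjusted p = 8.90e-06). The difference of luminal cells over adipocytes (-1.44, SE 0.65, adjusted p = 0.0473) was lost with the pool of mice as a block (adjusted p = 0.0651) and without the diestrus adipocyte libraries (-0.78, adjusted p = 0.296). It was also lost with the newer quasi-likelihood method (adjusted p = 0.0653) and when some single libraries were left out (-1.07 to -1.44).

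**Figure D2:**
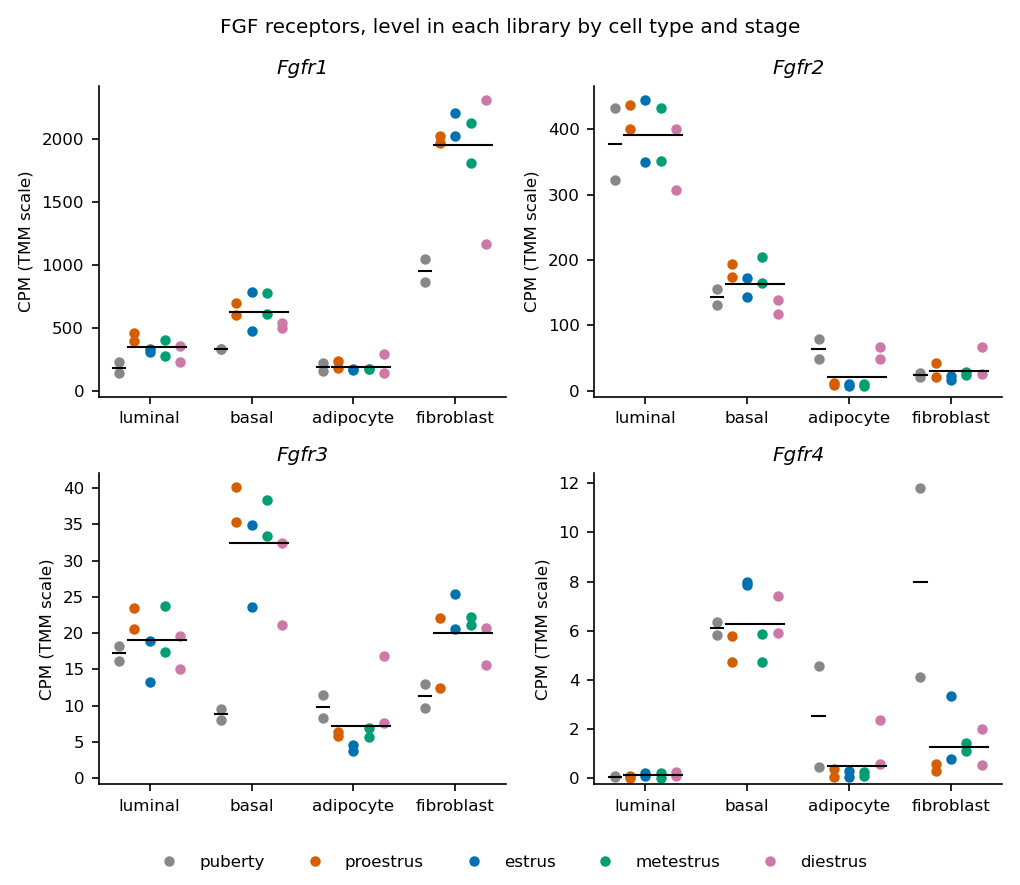
CPM of each of the 4 receptor genes in every library, by cell type, with points coloured by stage and bars at the means of the pubertal and of the adult libraries. Fgfr1 is highest in fibroblasts (860 to 2311 CPM), Fgfr2 in luminal cells (308 to 444 CPM), and adult Fgfr3 and Fgfr4 in basal cells.

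Over all adult comparisons, 9 of the 10 genes passed the filter. Of these, 7 differed between luminal and basal cells, where 73.6% of all 15077 genes tested did. All 9 differed between luminal cells and adipocytes (81.2% of all genes), 8 between luminal cells and fibroblasts (81%), 8 between basal cells and adipocytes (84.2%), 8 between basal cells and fibroblasts (77%) and 8 between adipocytes and fibroblasts (78.4%). Counts of 7 to 9 of 9 genes lay near this background, so the number of calls does not set the FGF genes apart. The median absolute log2 difference of the 9 genes between luminal cells and adipocytes was 4.19, against 0.996 over all genes tested, and between basal cells and fibroblasts it was 2.45, against 0.84. These medians do not set the FGF genes apart either. Some of the 9 genes passed the filter only through cell types where they were high, and Fgf10 had 2 reads over the 8 adult luminal libraries. The genes were also chosen with earlier results of these data known, and the medians of the other comparisons are not given here.

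Levels of different genes were compared as RPKM, the CPM per kilobase of exon. The summed ligand RPKM of the 6 genes averaged 1.54 in adult luminal cells, 3.67 in adult basal cells, 15.9 in adult adipocytes and 23.3 in adult fibroblasts. The summed receptor RPKM averaged 75.3 in the luminal, 85.2 in the basal, 22.7 in the adipocyte and 204 in the fibroblast libraries. Fgf10 made up 50.3% of the ligand RPKM in adult adipocytes (34.4% to 59% over libraries), while Fgf7 made up 63.8% in adult fibroblasts (49.3% to 78%). Fgf1 made up 88.3% of the small luminal total, and Fgf1 and Fgf2 made up 45.3% and 43.1% of the basal total. Among the receptors, Fgfr1 made up 96.7% of the RPKM in adult fibroblasts (92.2% to 98.2%), 86.5% in adipocytes (60.4% to 93.1%) and 73.8% in basal cells (71.4% to 77%). Luminal cells were the only cell type in which Fgfr2 reached the level of Fgfr1. Fgfr2 was 50.5% of their receptor RPKM (46% to 55%) and Fgfr1 45.9% (42% to 50.4%), and the ratio of Fgfr2 to Fgfr1 averaged 1.11 (0.914 to 1.29) over the 8 adult luminal libraries. That ratio depends on the gene length used and averaged 1.32 when each gene was given the length of its longest transcript.

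The same comparisons between cell types were made in the 8 pubertal libraries, with 2 per cell type. Of the 9 genes that passed the filter, 5 differed between luminal and basal cells (37.2% of all genes tested), 6 between luminal cells and adipocytes (39.7%), 8 between luminal cells and fibroblasts (52.2%), 5 between basal cells and adipocytes (40.9%), 6 between basal cells and fibroblasts (35.8%) and 4 between adipocytes and fibroblasts (28.4%). Fgf10 was again higher in adipocytes, at 24.7 and 52 CPM, than in fibroblasts, at 8.87 and 8.6 CPM (log2 difference 2.11, SE 0.44, adjusted p = 0.0121), and Fgf7 lower in adipocytes than in fibroblasts (-3.03, SE 0.71, adjusted p = 0.016). Both calls were lost when either fibroblast library was left out, with adjusted p from 0.0545 to 0.0912. Pubertal adipocytes held 1350 Fgf10 reads and pubertal fibroblasts 192, against none in pubertal basal cells, so that Fgf10 was at least 503-fold higher in adipocytes and at least 113-fold higher in fibroblasts when basal cells were set at 3 reads over both libraries. Fgf2 had 52 reads in pubertal basal cells, 246 in adipocytes and 158 in fibroblasts, against none in luminal cells, and on the same floor it was at least 16.5-fold higher in basal cells, 87.1-fold higher in adipocytes and 88.7-fold higher in fibroblasts.

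The order of the cell types was not the same at both ages for several of these genes. Fgfr3 was higher in pubertal luminal cells, at 18.3 and 16.2 CPM, than in pubertal basal cells, at 8.08 and 9.56 CPM (log2 difference 0.97, SE 0.30, adjusted p = 0.0354), the reverse of the adult order. This pubertal call was lost without a filter (adjusted p = 0.0621) and when any of 6 of the 8 libraries was left out (adjusted p 0.055 to 0.231), with log2 differences of 0.83 to 1.08. Fgfr2 was higher in pubertal adipocytes, at 79.5 and 48.2 CPM, than in pubertal fibroblasts, at 27.6 and 21.7 CPM (1.34, SE 0.32, adjusted p = 0.0174), again the reverse of the adult order. That call was lost without either fibroblast library or without the first adipocyte library, where the log2 difference was 0.90 to 1.50 (adjusted p 0.0803 to 0.134). The summed luminal markers were at 1736 and 1094 CPM in the pubertal adipocyte libraries and at 109 to 191 CPM in the pubertal fibroblast libraries, and their part in this difference was not tested. Fgf2 was lower in pubertal basal cells, at 1.38 and 1.29 CPM, than in adipocytes, at 5.27 and 8.74 CPM (-2.43, SE 0.44, adjusted p = 0.004), and than in fibroblasts, at 8.08 and 6.24 CPM (-2.49, SE 0.44, adjusted p = 0.00388). Fgf1 was lower in pubertal luminal cells, at 1.63 and 0.997 CPM, than in fibroblasts, at 2.9 and 3.59 CPM (-1.36, adjusted p = 0.0421), and than in basal cells, at 3.68 and 3.31 CPM (-1.39, adjusted p = 0.0479), calls that were lost with the replicate as a block (adjusted p = 0.0517 and 0.0545). Both were also lost without a filter (adjusted p = 0.0701 and 0.0770). The difference from basal cells was lost with RLE size factors (adjusted p = 0.0511) and DESeq2 (adjusted p = 0.0593) as well. Each call was also lost when some single libraries were left out, with log2 differences of -1.07 to -1.53 from fibroblasts and -1.10 to -1.48 from basal cells.

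The adult libraries were then compared with the pubertal libraries of the same cell type. In basal cells 4 of the 6 genes that passed the filter were called, where 49.3% of all genes tested were called. A count of 4 of 6 lies near this share and does not set the FGF genes apart. All 4 were called higher in adults. Over all genes tested, 6153 were called, of which 3057 were higher in adults (24.5% of all genes tested). Fgf2 was at 7 to 18.2 CPM in adult basal cells (median 9.59) and at 1.38 and 1.29 CPM in pubertal basal cells, a log2 difference of 2.96 (SE 0.32, adjusted p = 6.0e-05). Fgfr3 was at 21.2 to 40.2 CPM in adult basal cells (median 34.1) and at 8.08 and 9.56 CPM in pubertal ones (1.85, SE 0.22, adjusted p = 8.5e-05). Fgf1 was at 5.43 to 11.9 CPM (median 8.92) against 3.68 and 3.31 CPM (1.33, SE 0.22, adjusted p = 0.000687), and Fgfr1 at 477 to 784 CPM (median 604) against 330.1 and 333 CPM (0.89, SE 0.18, adjusted p = 0.00222). In none of these 4 genes did the adult and pubertal basal libraries overlap, but the share of all genes without such overlap was not counted. Fgfr2 (0.16, adjusted p = 0.340) and Fgfr4 (0.01, SE 0.19, adjusted p = 0.968) did not pass the test in basal cells. Several summed lists moved with age in the same libraries without overlap. The 14 immediate early and dissociation stress genes were at 3795 to 7489 CPM in adult basal libraries and at 2209 to 2872 CPM in pubertal ones, the luminal markers at 2435 to 3121 CPM in adult and 1429 to 1869 CPM in pubertal ones, and 7 epidermal markers at 3.96 to 7.14 CPM in adult and 116 to 201 CPM in pubertal ones. Their part in the differences of age was not tested.

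In luminal cells 1 of 4 genes was called, where 10.8% of all genes tested were. Fgf1 was at 4.75 to 14.4 CPM in adult luminal cells (median 6.51) and at 1.63 and 0.997 CPM in pubertal ones, a log2 difference of 2.40 (SE 0.33, adjusted p = 0.00214) with no overlap. Fgfr1 did not pass the test (0.90, SE 0.26, adjusted p = 0.0581), although the adult libraries at 229 to 458 CPM all lay above the pubertal ones at 225 and 140 CPM. Fgfr2 was at 308 to 444 CPM in adult luminal cells and at 432 and 322 CPM in pubertal ones (0.05, SE 0.19, adjusted p = 0.864). The immediate early and stress genes summed to 5486 to 10843 CPM in adult luminal libraries and to 3854 to 4520 CPM in pubertal ones, the fibroblast markers to 108 to 533 CPM in adult and 24.7 to 36.1 CPM in pubertal ones, and the epidermal markers to 60.3 to 111 CPM in adult and 187 to 270 CPM in pubertal ones, and their part was not tested. The ratio of Fgfr2 to Fgfr1 RPKM was 0.914 to 1.29 in adult luminal cells and 1.83 and 2.19 in the pubertal libraries.

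In fibroblasts 3 of 9 genes were called, where 18.9% of all genes tested were. Fgf7 was lower in adults, at 18.4 to 101 CPM (median 49.8), than at puberty, at 87.6 and 125 CPM (-1.28, SE 0.30, adjusted p = 0.0185), with the first proestrus library at 101 CPM inside the pubertal range. Fgfr4 was lower in adults, at 0.294 to 3.36 CPM (median 0.949), than at puberty, at 4.13 and 11.8 CPM (-2.94, SE 0.52, adjusted p = 0.00827). Fgfr1 was higher in adults, at 1162 to 2311 CPM (median 2023), than at puberty, at 1042 and 860 CPM (0.94, SE 0.27, adjusted p = 0.0376). Each of these rests on the pubertal libraries: without the first, the Fgf7 difference was -1.54 (adjusted p = 0.0629) and the Fgfr1 difference 1.06 (adjusted p = 0.141), and without the second, the differences were -0.99 for Fgf7 (adjusted p = 0.204), 0.82 for Fgfr1 (adjusted p = 0.255) and -1.98 for Fgfr4 (adjusted p = 0.156). The Fgfr1 call was also lost without either proestrus or either metestrus fibroblast library (0.91 to 0.96, adjusted p 0.0581 to 0.0742). The summed level of 10 fibroblast markers was 19261 to 51061 CPM in adult fibroblast libraries and 111982 and 80405 CPM in pubertal ones. The immediate early and stress genes summed to 9347 to 21155 CPM in adult fibroblast libraries and to 5942 to 6863 CPM in pubertal ones. The part of either list in the differences of age was not tested.

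In adipocytes 1 of 9 genes was called, where 12.3% of all genes tested were. Fgfr2 was lower in adults, at 7.44 to 67.4 CPM (median 10.2), than at puberty, at 79.5 and 48.2 CPM (-2.07, SE 0.22, adjusted p = 0.0107). The difference was -2.75 (adjusted p = 0.00347) without the diestrus libraries, and -1.66 (adjusted p = 0.0854) without the first pubertal library. The luminal marker sums given above were higher in the pubertal adipocyte libraries than in the 6 adult libraries outside diestrus, and their part in the Fgfr2 difference was not tested. Fgf10 (-0.06, SE 0.24, adjusted p = 0.878) and Fgf7 (-0.26, SE 0.73, adjusted p = 0.827) did not pass the test. Without the diestrus libraries Fgfr3 was also called, lower in adults (-0.85, adjusted p = 0.0244). Fgfr4 (-2.96, SE 0.88, adjusted p = 0.0668), which DESeq2 (adjusted p = 0.0328) and a joint fit of all libraries (adjusted p = 0.00255) called, was at 0.0559 to 2.39 CPM in adult adipocytes and at 0.474 and 4.57 CPM in pubertal ones. The highest library of each age, the second of diestrus and the second of puberty, also had the highest summed level of 7 epidermal markers (1947 and 961 CPM, against 19.5 to 250 CPM in the other 8 adipocyte libraries).

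**Figure D3:**
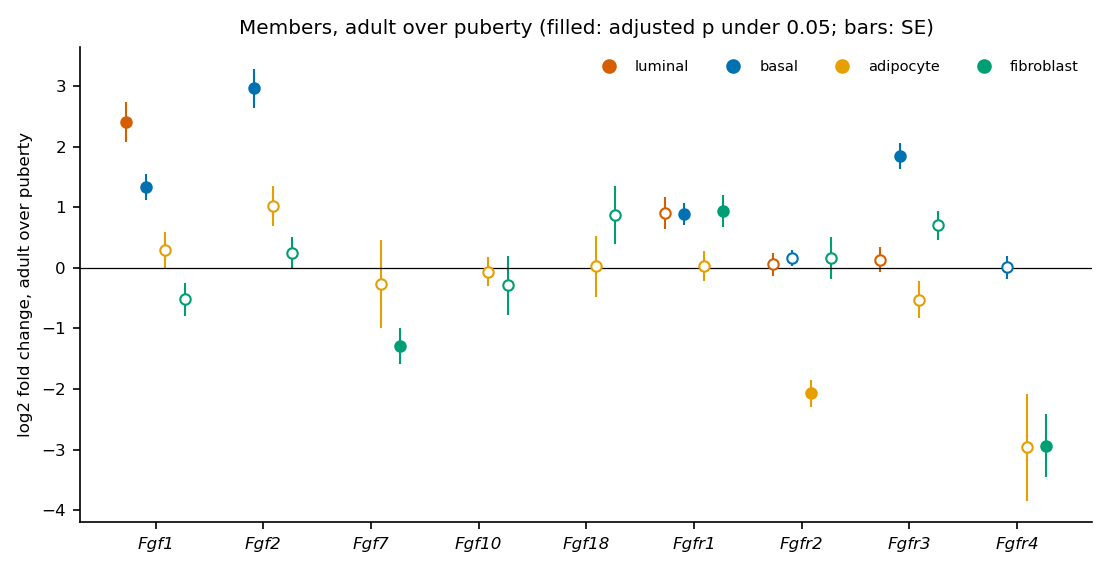
Log2 difference of adult over pubertal libraries for each gene that passed the filter in each cell type, with bars for the standard error and filled points for adjusted p under 0.05. The filled points are Fgf1 in luminal cells, Fgf1, Fgf2, Fgfr1 and Fgfr3 in basal cells, Fgfr2 in adipocytes, and Fgf7, Fgfr1 and Fgfr4 in fibroblasts.

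Whether the difference between ages was itself different between cell types was tested as an interaction over all 40 libraries, where 42% of 15356 genes were called. It was called for Fgf1 (adjusted p = 4.48e-05), Fgfr2 (adjusted p = 9.27e-05), Fgfr3 (adjusted p = 0.000254), Fgf2 (adjusted p = 0.00136) and Fgfr4 (adjusted p = 0.0183). It was not called for Fgfr1 (adjusted p = 0.0574), Fgf7 (adjusted p = 0.286), Fgf18 (adjusted p = 0.404) or Fgf10 (adjusted p = 0.898).

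Within adults, each pair of estrous stages was compared in each cell type. None of the 162 tests of FGF genes over the 24 comparisons passed the threshold in the edgeR fits made per cell type. Of them, 30 had an unadjusted p under 0.05. The background of the same edgeR fits was as sparse. No gene was called in 19 of the 24 comparisons, and the others called 0.0569% (luminal cells, estrus over proestrus), 0.195% (luminal cells, metestrus over proestrus), 0.252% (luminal cells, diestrus over proestrus), 0.0247% (basal cells, metestrus over proestrus) and 0.0801% (adipocytes, diestrus over estrus) of all genes tested. The smallest adjusted p was 0.0518, for Fgfr2 in adipocytes of diestrus over estrus. DESeq2 called 10 of these tests, in comparisons where its calls over all genes were far more than those of these edgeR fits. They ran from 206 genes (luminal cells, metestrus over proestrus) to 2098 genes (adipocytes, diestrus over estrus). A joint edgeR fit of all adult libraries called Fgfr2 in adipocytes of diestrus over each other stage (log2 difference 2.49 to 2.72). Its adjusted p was 0.000112 to 0.000177, where the joint fit called 1955 to 2163 genes in all. The joint fit also called adipocyte Fgfr3 and Fgfr4, and fibroblast Fgfr2, in diestrus over estrus. The paper, also with edgeR, reported many more genes in adipocyte pairs with diestrus than the fits per cell type here. Luminal Fgfr2 was at 438 and 401 CPM in proestrus, 444 and 351 CPM in estrus, 432 and 352 CPM in metestrus and 308 and 400.0 CPM in diestrus. Fgf7 in fibroblasts had its lowest adult values in the estrus libraries together with the first diestrus library, and its difference of estrus over proestrus was -1.64 (SE 0.42, adjusted p = 0.211 with edgeR and 0.00726 with DESeq2). Fgf1 in luminal cells was highest in metestrus, at 14.4 and 9.71 CPM against 4.75 to 7.27 CPM in the other stages, with no overlap, but the difference of metestrus over the other 3 stages (1.02, SE 0.22, adjusted p = 0.436) did not pass edgeR's test. It was called by DESeq2 (1.03, adjusted p = 0.0221) and by edgeR without a filter (adjusted p = 1.96e-06).

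Each stage was also compared with the mean of the other 3. The FGF genes were called in 2 of the 108 such tests, both in adipocytes of diestrus, where 2 of 8 genes were called and 11% of all genes tested were. No gene at all was called in 12 of the 16 comparisons, and the remaining ones called 0.471% (luminal cells, proestrus), 0.00825% (basal cells, proestrus) and 1.21% (basal cells, estrus) of all genes tested. Fgfr2 was at 48.5 and 67.4 CPM in diestrus adipocytes and at 7.44 to 11.4 CPM in the 6 adipocyte libraries of the other stages, a log2 difference of 2.60 (SE 0.19, adjusted p = 0.0106). Fgf10 was at 23.9 and 22.1 CPM in diestrus adipocytes and at 31.3 to 51.5 CPM in the other stages (-0.87, SE 0.13, adjusted p = 0.0252). Neither gene overlapped between diestrus and the rest, but the share of all genes without such overlap was not counted. Fgfr3 was at 7.64 and 16.8 CPM in diestrus adipocytes and at 3.74 to 6.87 CPM in the other stages (1.15, SE 0.30, adjusted p = 0.0555).

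The Fgfr2 difference stood beside epithelial RNA in the same libraries. The summed luminal markers (12 of 12 measured) were at 2030 and 1030 CPM in diestrus adipocyte libraries and at 192 to 488 CPM in the other 6, and the summed basal markers (10 of 10 measured) at 758 and 4470 CPM in diestrus and at 168 to 528 CPM in the other 6. The summed adipocyte markers were at 22892 and 7188 CPM in diestrus and at 18490 to 30361 CPM in the other 6. Luminal cells had the highest Fgfr2 level of the 4 cell types, and the part of epithelial RNA in the adipocyte value was not tested. Without either diestrus library alone, the differences were 2.38 and 2.93 for Fgfr2 and -0.78 and -0.82 for Fgf10. The Fgfr2 call was lost when any of 5 libraries of the other stages was left out (2.56 to 2.69, adjusted p 0.0508 to 0.0643), and the Fgf10 call when any of 7 libraries was left out (-0.78 to -0.90, adjusted p 0.0508 to 0.0728). The Fgf10 call was also lost in a joint fit of all adult libraries (-0.85, adjusted p = 0.166), which called Fgfr3 (1.18, adjusted p = 0.0029) and Fgfr4 (3.0, adjusted p = 0.00466) beside Fgfr2. That joint fit called 3349 genes in all in this comparison. Over all adult libraries, the test that stage differences vary between cell types was called for Fgfr2 (adjusted p = 0.00494, where 3.96% of all genes were called) and for no other gene of the set.

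**Figure D4:**
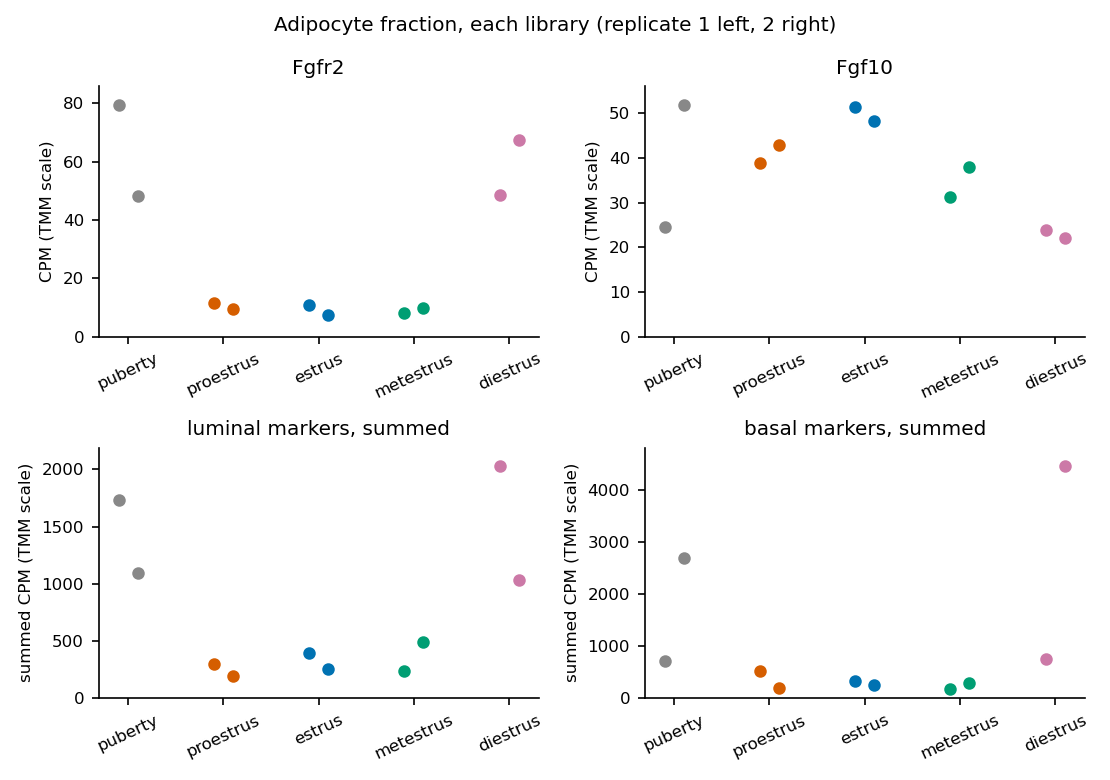
CPM of Fgfr2 and Fgf10 and summed CPM of the luminal and basal marker lists in each of the 10 adipocyte libraries, from puberty to diestrus. The pubertal and diestrus libraries are high for Fgfr2 (48.2 to 79.5 CPM) and for both marker sums, and the diestrus libraries are the lowest for Fgf10.

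The other genes of the FGF pathway were described from lists grouped by role. Of 12 further FGF ligands, 4 passed the filter in adults, which a gene could do through fibroblasts alone, so the filter in part sets their order. All 4 were lower in luminal cells, in basal cells and in adipocytes than in fibroblasts, where 81%, 77% and 78.4% of all genes were called in either direction. They included Fgf21, a hormone-like FGF, which averaged 0.144 CPM in luminal cells, 14.2 CPM in basal cells, 3.68 CPM in adipocytes and 25 CPM in fibroblasts, and Fgf23, the phosphate-regulating hormone of bone, at 33.1 CPM in fibroblasts (5.03 to 82.8 CPM over libraries) and at most 0.237 CPM on average elsewhere. Klb, a co-receptor that some but not all hormone-like FGFs need, was found in adipocytes at 22.7 CPM (8.53 to 35.3 CPM) and was at or under 0.0342 CPM on average in the other cell types. Fgfrl1, a receptor-like protein without a kinase domain, averaged 19.2 CPM in luminal cells and 97.1 CPM in basal cells (log2 difference -2.34, SE 0.17, adjusted p = 1.42e-10).

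Most heparan sulfate carriers and enzymes that build and trim the chain were lower in luminal than in basal cells and fibroblasts, and lower in adipocytes than in fibroblasts. Of 21 genes, 2 were higher and 15 lower in luminal than in basal cells, where 73.6% of all genes were called (median log2 difference -1.33, against -0.04 over all genes), 3 higher and 17 lower in luminal cells than in fibroblasts (-1.47, against 0.02), and 1 higher and 18 lower in adipocytes than in fibroblasts (-1.64, against 0.02). In basal cells, 18 were higher and 3 lower than in adipocytes (1.31, against -0.14). The called genes were 17 to 21 of 21 in these comparisons, where 73.6% to 84.2% of all genes were called. Hspg2, which encodes perlecan, averaged 48.2 CPM in luminal cells, 502 CPM in basal cells, 341 CPM in adipocytes and 1878 CPM in fibroblasts. Gpc3, a glypican, averaged 0.097 CPM in luminal cells, 11.7 CPM in basal cells, 36.2 CPM in adipocytes and 659 CPM in fibroblasts. The extracellular sulfatases went in opposite directions: Sulf1 averaged 1.44 CPM in luminal and 66.4 CPM in basal cells (log2 difference -5.52, SE 0.22, adjusted p = 7.11e-15), whereas Sulf2 averaged 139 CPM in luminal and 8.05 CPM in basal cells (log2 difference 4.11, SE 0.14, adjusted p = 9.54e-16).

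Feedback inhibitors and target transcription factors of FGF signalling are given for comparisons in which 73.6% to 84.2% of all genes were called. Of 10 listed feedback inhibitors 9 were tested, of which 1 was higher and 5 were lower in luminal than in basal cells, a share below the 73.6% of all genes (median -0.69, against -0.04), and 1 was higher and 7 were lower in adipocytes than in fibroblasts (-0.99, against 0.02). Spry4, a Sprouty protein that limits receptor tyrosine kinase signalling, averaged 5.52 CPM in luminal cells, 15.7 CPM in basal cells, 35.7 CPM in adipocytes and 69.5 CPM in fibroblasts. Dusp6, a phosphatase that inactivates the kinase ERK, had another order and averaged 274 CPM in luminal cells, 434 CPM in basal cells, 108 CPM in adipocytes and 63.3 CPM in fibroblasts. Of 8 target transcription factors, 6 were higher and 1 was lower in basal cells than in adipocytes (1.75, against -0.14), and 7 were lower in adipocytes than in fibroblasts (-1.02, against 0.02). Etv5, an ETS factor induced by FGF signalling, averaged 12.8 CPM in luminal and 52.3 CPM in basal cells (-2.02 on the log2 scale, SE 0.15, adjusted p = 1.99e-10), and Etv4 averaged 11.6 CPM in luminal cells, 17.7 CPM in basal cells, 2.08 CPM in adipocytes and 3.2 CPM in fibroblasts. Of 20 signal transducers, 13 were higher and 4 lower in basal cells than in adipocytes (0.39, against -0.14).

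Between ages the heparan sulfate, transducer, feedback and target lists were called in basal cells at 30 of 57 genes tested, where 49.3% of all genes were called, at 7 of 55 in luminal cells (10.8% of all genes), 2 of 58 in adipocytes (12.3%) and 7 of 58 in fibroblasts (18.9%). The basal share was near that of all genes. Of 20 heparan sulfate genes tested there, 6 were higher and 5 lower in adults than at puberty, of 20 transducers 6 were higher and 3 lower, of 8 target transcription factors 4 were higher and 3 lower, and of 9 feedback inhibitors 2 were higher and 1 was lower. Dusp6 averaged 434 CPM in adult basal cells and 189 CPM in pubertal ones, higher in adults by 1.19 on the log2 scale (SE 0.13, adjusted p = 5.0e-05). Fgfbp1, a carrier that releases FGFs from the matrix, was lower in adult than in pubertal basal cells by a log2 difference of -6.48 (SE 0.48, adjusted p = 6.66e-06). Both changes stood beside the stress and epidermal sums of the basal libraries given above, whose part was not tested. In luminal cells Sdc1, a syndecan that carries heparan sulfate, was lower in adults (-1.57, SE 0.16, adjusted p = 0.000585). In diestrus adipocytes, where Fgfr2 was high, Sdc1 (log2 difference 2.36, SE 0.47, adjusted p = 0.0374) and the syndecan Sdc4 (2.02, SE 0.42, adjusted p = 0.0405) were higher than in the other 3 stages. Sdc4 averaged 1255 CPM in adult luminal and 1453 CPM in adult basal cells, and the markers of both were high in those libraries. The part of epithelial RNA in the Sdc1 and Sdc4 differences was not tested.

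For the genes of the set, those with the closest pattern were found by Pearson correlation of log2 CPM over the 40 libraries, which share cell types and pools and so are not independent points. Fgf10 was closest to Hoxa10 (r = 0.99), Hoxa7 (r = 0.98) and Hoxa9 (r = 0.98). Fgf7 was closest to Mmp27 (r = 0.99) and Fgf2 to Tns1 (r = 0.97). Among receptors, Fgfr2 was closest to Spint2 (r = 0.97), Fgfr3 to Tgif1 (r = 0.93) and Fgfr4 to Trh (r = 0.91). Fgf1 had the least close neighbour of the genes that passed the filter, Ogfod1 (r = 0.82).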

How the data were processed

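RNA from 40 libraries was sequenced as single 65-base reads from poly(A)-selected, strand-specific libraries. According to the study's methods and processing notes, the authors aligned reads with TopHat 2.1 and Bowtie 1.1.0 to GRCm38 (mm10) and counted them per gene with HTSeq. The strand setting of the counting and the annotation release are not given in the sources used here. The deposited adult and pubertal tables hold raw counts per Ensembl gene, with 25044 and 24268 genes. Symbols, coordinates and exon lengths were taken from GENCODE M21, which named 24726 and 23977 of the identifiers. Every column of both tables was matched to a sample.

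Library sizes were scaled by TMM in edgeR 4.0.16 (R 4.3.3, limma 3.58.1), and CPM and RPKM were computed on that scale over all 40 libraries, with RPKM on the union of a gene's exons. A gene entered a fit if 2 or more of its libraries exceeded 1 CPM, and was tested with edgeR's quasi-likelihood test, with Benjamini-Hochberg adjustment over all genes tested and a threshold of 0.05. Cell types were compared in fits of the 32 adult and of the 8 pubertal libraries, each with the mean over stages in adults, and stages and ages in a fit per cell type. Interactions were tested over the adult libraries and over all 40. Alternatives were RLE size factors, DESeq2 1.42.0, no filter, a newer quasi-likelihood method, a replicate block, joint fits and leaving out each library. Leaving out both diestrus adipocyte libraries was added after their epithelial markers had been seen. A group holds 2 libraries, and when 1 is left out the other is assumed to vary like the other groups. Fits were tested on simulated data first.

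The 4 libraries of an adult replicate were made from cells of 1 pool of mice, so the replicate pairs the libraries in comparisons of cell types. The correlation of deviations within such a pool was -0.05 to 0.24 over 24 pairs, with 9 above 0.1, and 0.06 to 0.17 over the 3 pubertal pairs without adipocytes. The second pubertal adipocyte library came from other mice than the rest of its replicate, so the block holds a number and not a pool there. Replicates are separate pools of mice. All 10 genes were named in every comparison. Of each pathway list the 4 genes with the smallest adjusted p in a comparison could be named, and for each member the 3 genes with the highest correlation. Sdc4 in luminal and basal cells was named after its values were seen. A few results and sequences are not reported here. The members and all lists were chosen with earlier results of these data known. Intervals and floors of 3 counts cover counting error only.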

Additional observations from a re-analysis of the deposited data

Results flagged for a closer look

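In 7 of 40 groups of 8 adult libraries (each gene in each cell type), 1 library stood far from the others, and chance alone gives about 1 group in 20. In fibroblasts, Fgfr1 was lowest in the second diestrus library at 1162 CPM, with the next at 1808 CPM. The same library was lowest for Fgf18 at 2.3 CPM, with the next at 4.68 CPM, and highest for Fgf9 at 0.945 CPM, with the next at 0.512 CPM. It also had the lowest summed fibroblast markers of the adult fibroblast libraries (19261 CPM), whose part in these values was not tested. Fgf1 in fibroblasts was lowest in the first metestrus library at 1.55 CPM, with the next at 2.34 CPM. In adipocytes, the second diestrus library was highest for Fgfr3 at 16.8 CPM, with the next at 7.64 CPM, and for Fgfr4 at 2.39 CPM, with the next at 0.57 CPM. That library had the highest basal (4470 CPM) and epidermal (1947 CPM) marker sums of the adult adipocyte libraries, and their part was not tested. Fgf10 in basal cells was at 0.0933 CPM in the second proestrus library, which is 2 reads, and at 0 in the other 7.

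The difference between adult and pubertal libraries differed between cell types for Fgf1 (interaction, adjusted p = 4.48e-05), Fgf2 (0.00136), Fgfr2 (9.27e-05), Fgfr3 (0.000254) and Fgfr4 (0.0183), all as adjusted p of edgeR's quasi-likelihood test over 40 libraries. The differences between estrous stages differed between cell types for Fgfr2 (interaction, adjusted p = 0.00494).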

How the results depend on the processing

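No called difference of an FGF gene changed direction under any alternative that was run. Calls between pairs of stages rose with those of all genes. In the pairs where FGF genes were called, DESeq2 called 206 to 2098 genes in all. The fit without a filter called 61 to 1929 there and the joint fit 1955 to 2163, against at most 31 in the main fits. For a stage over the other 3, FGF genes were called where DESeq2 called 50 to 3151 genes, no filter 269 to 1558 and the joint fit 3349. The count of called tests between adult cell types was 48, and 47 to 51 under the alternatives, 47 to 49 when a library was left out. At puberty it was 34, and 33 or 34 under the alternatives, 26 to 34 when a library was left out, with 26 without either basal library. Between ages it was 9, and 9 to 13 under the alternatives, with 12 in DESeq2, 11 without a filter, 13 in a joint fit of all libraries and 6 to 10 when a library was left out. Between pairs of stages it was 0, but 2 with RLE size factors, 10 with DESeq2, 16 without a filter, 1 with the newer quasi-likelihood method, 6 when all adult libraries were fitted jointly and 0 to 8 when a library was left out. For a stage over the other 3 it was 2, but 8 with DESeq2, 10 without a filter, 3 in the joint fit and 0 to 3 when a library was left out.

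With the replicate block the counts were 47 between adult cell types, 33 at puberty and 9 between ages. For stages, where replicates share only a number (correlations of -0.63 to 0.36, above 0.1 in 5 of 24 pairs), the replicate block gave 0 calls between pairs of stages and 0 for a stage over the other 3, where Fgfr2 in diestrus adipocytes had an adjusted p of 0.0557 and Fgf10 of 0.0716. The block ended 3 other calls, those named beside their results, and added Fgfr1 between luminal and basal cells at puberty (-0.90, adjusted p = 0.0345). At puberty, leaving out a library also ended calls of Fgfr2 (luminal over basal, 1.26 to 1.50, and basal over adipocyte, 0.79 to 1.25), Fgf18 (basal over adipocyte, -3.48 to -3.86, and over fibroblast, -2.83 to -4.03), Fgfr1 (basal over fibroblast, -1.58 and -1.59) and Fgfr4 (luminal over adipocyte, -3.02 to -5.74), and the cause was not tested. Library depth limits the low genes: luminal levels of Fgf2, Fgf7, Fgf18 and Fgfr4 rest on 0 to 5 reads per adult library.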
